A study of Triticum aestivum with 4 samples.

Results

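The peaks described here are the TaCCA1-7D binding regions that lay on wheat chromosomes 7A, 7B and 7D, the homoeologous group that carries the bait gene itself. They were taken by chromosome name alone, with no measured value involved, and numbered 71363 of the 467343 peaks in the list, or 15.3% (95% Wilson interval 15.2 to 15.4). Chromosome 7A held 25362 of them, 7B 24875 and 7D 21126. DNA affinity purification sequencing (DAP-seq) was done with genomic DNA from leaves of 2-week-old seedlings of the cultivar Fielder, grown in 16 h light at 22°C and 8 h dark at 19°C. The bait was TaCCA1-7D fused to maltose-binding protein (MBP) and held on amylose resin. One µg of sheared DNA of 300 to 1000 bp was offered to 10 µg of protein. The labels describe 2 CCA1 libraries and 2 input libraries, while the list gives 1 value per peak and does not separate them, so no value given here has a replicate error, and the depth of each library was not analysed here.

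CCA1 is a MYB-like transcription factor of the plant circadian clock, made around dawn, and is best known in Arabidopsis for binding the evening element in promoters of evening-phased genes. In DAP-seq the DNA is free of nucleosomes, so a peak marks DNA that the protein can hold in a tube, whether or not the site is open in a leaf. Bread wheat is a hexaploid with A, B and D subgenomes, and most genes have a copy on each of 3 homoeologous chromosomes. The TaCCA1 copies are TraesCS7A02G299400, TraesCS7B02G188000 and TraesCS7D02G295400. The gene table at hand belonged to another assembly and held 0 of these identifiers, so no peak was assigned to a gene.

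The kind of site the protein was offered in the same study is shown by 4 designed oligonucleotides from wheat promoters, printed 5′ to 3′ with the AATATC core of the evening-element-like motif in capitals. None of these promoters is on group 7, so the sequences illustrate the site and not a member peak.
DAP1, from TraesCS1D02G226100 on 1D: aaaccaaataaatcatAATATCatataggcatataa
DAP2, from TraesCS1D02G295200 on 1D: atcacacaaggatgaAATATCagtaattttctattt
DAP3, from TraesCS2B02G491700 on 2B: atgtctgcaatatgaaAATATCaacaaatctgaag
DAP4, from TraesCS3B02G186700 on 3B: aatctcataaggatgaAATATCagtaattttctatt
Each oligonucleotide holds AATATC once within 35 or 36 nt. Outside the core, A and T made up 69.0 to 80.0% of the bases.

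Group 7 peaks were slightly denser than peaks elsewhere, and over the whole list this held for all 3 homoeologues. Density was counted as peaks per Mb, taking the last peak as the chromosome's end, which lay at 736.7 Mb on 7A, 750.6 Mb on 7B and 638.7 Mb on 7D. Chromosome 7A held 34.4 peaks per Mb, against 33.3 ± 0.615 (SD over the other 6 A chromosomes, range 32.2 to 34.0). Chromosome 7B held 33.1 peaks per Mb, against 32.2 ± 0.733 over the other 6 B chromosomes (range 31.3 to 33.5). Chromosome 7D held 33.1 peaks per Mb, against 32.1 ± 0.446 over the other 6 D chromosomes (range 31.3 to 32.5). Thus 7A and 7D lay above every other chromosome of their subgenome, whereas 7B was second to 4B. Among all 21 named chromosomes 7A ranked 1, 7B 8 and 7D 9.

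The mean density of the group was the highest of the 7 homoeologous groups, at 33.5 peaks per Mb, followed by groups 4, 5 and 3 at 32.9, 32.9 and 32.8. Each group 7 chromosome was set against the other 6 of its subgenome, and the mean difference was 1.01 peaks per Mb, positive in 3 of 3 chromosomes. An exact two-sided permutation test over all ways of drawing 1 chromosome from each subgenome gave p = 0.0146, or an adjusted p = 0.128 over the 12 chromosome measures compared. The smallest p this test can give is 0.00292. The difference therefore did not pass the threshold of 0.05 after adjustment. Chromosomes of 1 list are not replicates of the assay, so the test places group 7 among the chromosomes of this list and says nothing of a repeat experiment. With every subgenome pooled in the draws the exact permutation p was 0.0541, with an adjusted p = 0.6496. Among peaks with a fold enrichment above 10 the difference was 0.0324 per Mb (adjusted p = 0.518 by the exact permutation test), and 7D held 0.891 such peaks per Mb, below the mean of 0.897 over the other D chromosomes.

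**Figure D1:**
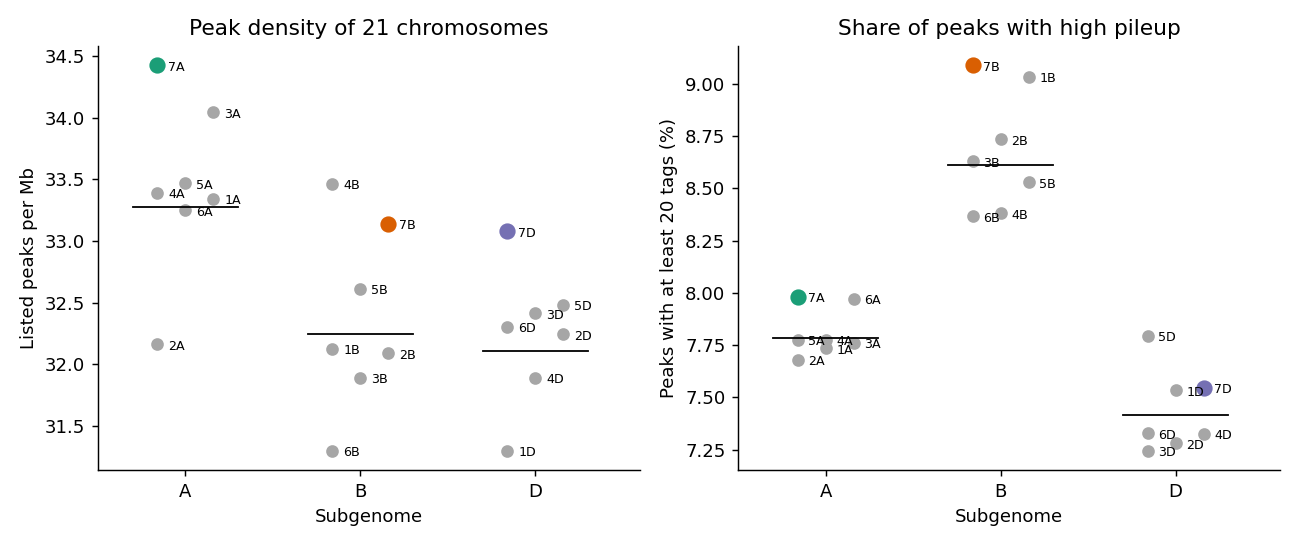
Listed peaks per Mb (left) and the percentage of peaks with at least 20 tags at the summit (right) for the 21 named chromosomes, by subgenome. Each point is 1 chromosome, the black line is the mean of the other 6 chromosomes of the subgenome, and the axes do not start at 0; 7A, 7B and 7D sit above the line in both panels.

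Peak names carry a running number with skipped values. The skipped numbers were read here as calls that did not reach the list, which no source used here states, so every count of calls and every kept share given here rests on that reading. Chromosome 7A had 83.2 numbered calls per Mb, against 79.8 ± 1.502 (SD, range 77.2 to 81.6) over the other 6 A chromosomes. Chromosome 7B had 76.3 calls per Mb, against 73.8 ± 1.95 (SD, range 71.1 to 77.2) over the other 6 B chromosomes, and was second to 4B. Chromosome 7D had 78.7 calls per Mb, against 76.8 ± 1.01 (SD, range 74.8 to 77.5) over the other 6 D chromosomes. So 7A and 7D lay above the range of their subgenome in numbered calls and 7B within it. The share of calls that was kept was 41.4% on 7A, 43.4% on 7B and 42.0% on 7D, and its mean difference from the other chromosomes was -0.113 percentage points (exact two-sided permutation p = 0.496, adjusted p = 0.724). On 7A the kept share was below that of each other A chromosome (41.5 to 41.9%).

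Group 7 peaks covered 37.02 Mb of 2126 Mb, from 1.71% of the length of 7D to 1.77% of that of 7A, with 1.74% on 7B. Their median width was 484 bp (quartiles 330 and 662), against 483 bp on the other 18 chromosomes. By chromosome the median width was 478 bp on 7A, 492 bp on 7B and 481 bp on 7D. The value for 7B lay above the range of the other B chromosomes (480 to 491 bp). The mean difference of group 7 was 1.17 bp (exact two-sided permutation p = 0.603, adjusted p = 0.724). Peaks of at least 1 kb numbered 2764, or 3.87% (95% Wilson interval 3.73 to 4.02), against 3.78% elsewhere, with a mean difference of 0.0917 percentage points (exact permutation p = 0.303, adjusted p = 0.606).

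Wider peaks held more tags, but they were not the most enriched. The number of tags at a summit and the local background were worked back for each peak from its p-value and fold enrichment. The share of group 7 peaks with at least 20 tags was 1.41% under 300 bp, 4.72% from 300 to under 500 bp and 12.1% from 500 to under 1000 bp. It was 28.7% from 1000 to under 1500 bp and 48.5% of the 66 peaks of 1500 bp or more. The share with a fold enrichment above 10 went from 1.02% under 300 bp to 4.15% at 500 to under 1000 bp, and was 3.48% and 1.52% in the next 2 classes. Across group 7 peaks Spearman's rho of width was 0.412 with tags and 0.296 with fold enrichment, and peaks of 1 list share libraries and depth. Chromosome 7B held 32 of the 66 widest peaks, 7A 18 and 7D 16.

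**Figure D2:**
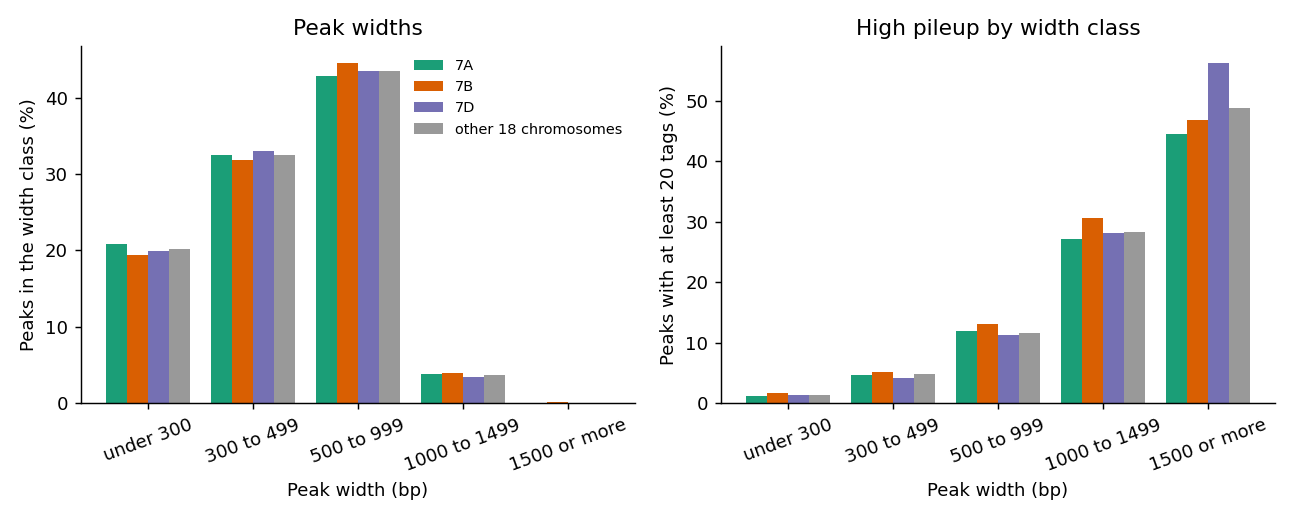
Percentage of peaks in each width class (left) and percentage of each class with at least 20 tags at the summit (right), for 7A, 7B, 7D and the other 18 named chromosomes pooled. Bars start at 0; the right panel rises with width on every chromosome, to 48.5% of the 66 group 7 peaks of 1500 bp or more.

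Fold enrichment, the ratio of summit tags to local background with 1 added to each, had a median of 6.19 on group 7 (quartiles 5.55 and 7.35) and a highest value of 28.5. The medians of 7A, 7B and 7D were 6.17, 6.24 and 6.17. The values 5.55, 6.17 and 6.79 are steps, because 21.5% of group 7 peaks sat at the lowest background of the list, 0.621 tags, where 8, 9 or 10 tags give exactly these ratios. The step at 6.17 alone held 3689 peaks, or 5.17%. The mean difference of the group in median fold enrichment was 0.00928 (exact two-sided permutation p = 0.175, adjusted p = 0.420).

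Strongly enriched peaks, those with a fold enrichment above 10, numbered 2071 on group 7, or 2.90% (95% Wilson interval 2.78 to 3.03), and 2.89% of peaks on the other 18 chromosomes. There were 720 on 7A (2.84%), 782 on 7B (3.14%) and 569 on 7D (2.69%). The mean difference was 0.00927 percentage points (exact permutation p = 0.924, adjusted p = 0.924), so a difference in the share of strong peaks was not detected for the group that carries the bait gene.

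Peaks with at least 20 tags were somewhat more common on group 7. They numbered 2024 on 7A (7.98%), 2261 on 7B (9.09%) and 1594 on 7D (7.55%). The other chromosomes of each subgenome had means of 7.78 ± 0.0992%, 8.61 ± 0.250% and 7.42 ± 0.210% (SD, n = 6 chromosomes each, in the order A, B and D). Chromosomes 7A and 7B were the highest of their subgenomes by narrow margins, since 6A had 7.97% and 1B 9.03%, and 7D was second. The mean difference was 0.267 percentage points, positive in 3 of 3 chromosomes (exact two-sided permutation p = 0.0262, adjusted p = 0.128). It did not pass the threshold of 0.05 after adjustment. With every subgenome pooled in the draws the exact permutation p was 0.478, with an adjusted p = 0.921. The share of peaks at the lowest background was 20.7% on 7A, 21.5% on 7B and 22.5% on 7D, a mean difference of -0.557 percentage points (exact permutation p = 0.0525, adjusted p = 0.157). The mean background was 1.15 tags on 7A, above the range of the other A chromosomes (1.12 to 1.14), and 1.15 and 1.11 on 7B and 7D, within theirs, and its part in the tag counts was not tested.

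The 3 strongest peaks of each homoeologue were 301 to 610 bp wide. Most rested on 38 to 55 tags over a background of 0.933 to 1.37 tags, against a group 7 median of 1.00. On 7A the highest fold enrichment was 24.5, at 706285678 to 706286287, with 106 tags over a background of 3.36. The next were 20.3 at 619179498 to 619179962 with 40 tags and 20.2 at 163839139 to 163839446 with 38 tags. On 7B the highest was 28.5, at 399500855 to 399501155, with 55 tags over a background of 0.968, and it ranked 13 among the peaks of all named chromosomes. It was followed by 23.9 at 66888386 to 66888981, with 127 tags over 4.36, and by 23.1 at 748291786 to 748292127, with 44 tags. On 7D the highest was 25.5, at 379338235 to 379338537, with 55 tags over 1.20. The next were 23.8 at 79175768 to 79176205 with 50 tags and 23.2 at 124654576 to 124655093 with 54 tags. Positions are 1-based and follow the wheat assembly that the study names only as Ensembl version 1.0.

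By contrast, the widest peaks had a fold enrichment below the group 7 median of 6.19. Their tags and background were above the group 7 medians of 12 and 1.00. The widest peak of the whole list lay on 7B at 613179513 to 613181677 and was 2165 bp wide. Its fold enrichment was 5.44, with 21 tags over a background of 3.04. On 7A the widest was 2090 bp, at 555963527 to 555965616, with a fold enrichment of 5.79 and 26 tags over 3.66. On 7D it was 1915 bp, at 594007149 to 594009063, with a fold enrichment of 5.35 and 21 tags over 3.12.

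Neighbouring group 7 peaks lay a median of 20127 bp apart, end to start, over 71360 pairs. The median was 19726 bp on 7A, 20014 bp on 7B and 20704 bp on 7D, and the mean difference from the other chromosomes was -410 bp (exact two-sided permutation p = 0.0321, adjusted p = 0.128). This measure restates the density and is not separate evidence. Pairs under 2 kb apart made up 4.61% on 7A, 4.88% on 7B and 4.45% on 7D, a mean difference of -0.0110 percentage points (exact permutation p = 0.857, adjusted p = 0.924).

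Distances between summits were depleted at a middle range. On group 7, 2868 pairs of neighbouring summits were under 2 kb apart, 2258 were 2 to 5 kb apart and 7226 were 5 to 8 kb apart. The ratio of pairs at 2 to 5 kb to pairs at 5 to 8 kb was 0.299 on 7A, 0.317 on 7B, 0.323 on 7D and 0.305 on the other 18 chromosomes. On 7A the count rose from 146 pairs at 4500 to 5000 bp to 378 pairs in the next 500 bp. The step at 5 kb was thus a feature of the list as a whole and was shared by group 7.

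**Figure D3:**
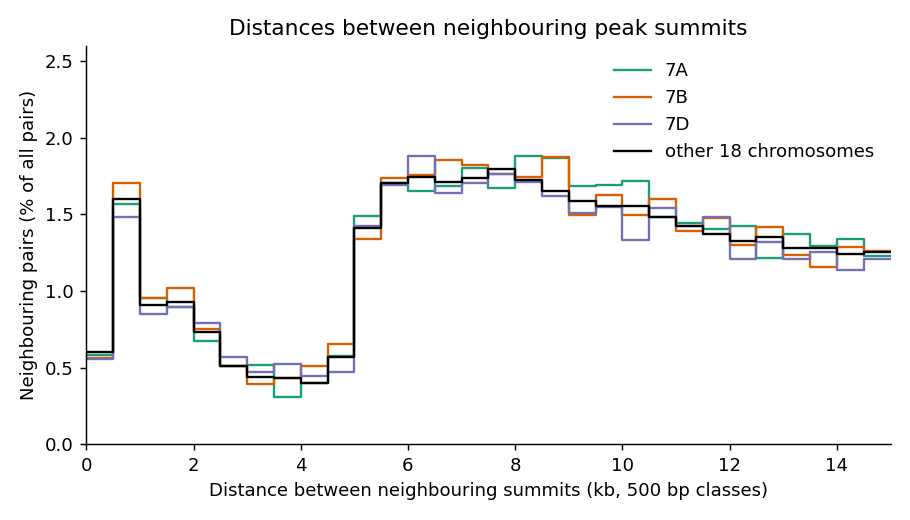
Distances between neighbouring peak summits up to 15 kb in 500 bp classes, as a percentage of all neighbouring pairs, for 7A, 7B, 7D and the other 18 named chromosomes pooled. The 4 lines fall together between 2 and 5 kb and step up at 5 kb.

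Peaks with a neighbour within 2 kb differed from the rest in the same way on each homoeologue. They made up 9.16% of peaks on 7A, 9.69% on 7B and 8.84% on 7D. Their median width was 367, 387 and 382 bp on the 3 chromosomes, against 492, 505 and 493 bp for the other peaks. Fold enrichment above 10 was reached by 1.34, 2.12 and 1.39% of them, against 2.99, 3.25 and 2.82% of the rest. Their mean background was 1.31, 1.40 and 1.32 tags, against 1.13, 1.13 and 1.09. Their median count of summit tags was 12, 13 and 12, against 12, 12 and 12. Close pairs were thus narrower and less enriched over a higher background, with a similar median of tags.

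Among the 3 homoeologues, long stretches without a listed peak were most numerous on 7B. Gaps over 300 kb numbered 38 on 7B, 16 on 7A and 6 on 7D. The longest gap on 7B ran from 738065819 to 739018158, or 952340 bp, and 2 peak numbers were skipped inside it. It was longer than the longest gap of 4B (922.0 kb) but shorter than those of 1B, 2B, 3B, 5B and 6B, which reached 2223 kb on 5B. On 7A the longest ran from 689137951 to 689924480 (786530 bp, 13 skipped numbers), and on 7D from 103330349 to 103870835 (540487 bp, 4 skipped numbers). The longest gap of 7D was shorter than that of each other named chromosome, of which 4D came next with 543.6 kb. In windows of 1 Mb the highest counts were 55 peaks on 7A (85 to 86 Mb), 53 on 7B (705 to 706 Mb) and 50 on 7D, reached at 597 to 598, 619 to 620 and 628 to 629 Mb. The lowest were 3 peaks on 7A (44 to 45 Mb), 1 on 7B (738 to 739 Mb) and 10 on 7D (103 to 104 Mb).

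Along each of the 3 chromosomes the variance of the bin counts exceeded their mean. Over full 10 Mb bins the lowest, median and highest counts were 251, 347 and 405 on 7A (73 bins), 179, 340 and 393 on 7B (75 bins) and 227, 331 and 418 on 7D (63 bins). Bins under 30 peaks per Mb made up 10.9% of the 211 group 7 bins and 16.5% of the 1186 bins elsewhere. Bins over 37 per Mb made up 10.9% and 6.75%. The homoeologues differed in this, with 5.48, 16.0 and 11.1% of bins under 30 per Mb on 7A, 7B and 7D. Bins over 37 per Mb made up 16.4, 9.33 and 6.35% in the same order. The variance of bin counts was 2.12 times their mean on 7A, 4.58 times on 7B and 2.46 times on 7D. The value for 7A was lower than on each other A chromosome (2.21 to 4.49). The mean difference of the group was -0.784 (exact two-sided permutation p = 0.356, adjusted p = 0.610).

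The sparsest bins lay near the middle of 7A and 7D but at the distal end of 7B. On 7A the lowest bin was in the middle of the chromosome, at 360 to 370 Mb, with 251 peaks (95% exact Poisson interval 221 to 284). On 7D it was also in the middle, at 330 to 340 Mb, with 227 peaks (198 to 259), and it stood in a run of 4 low bins, with 277 at 310 to 320 Mb, 283 at 320 to 330 Mb and 265 at 340 to 350 Mb. On 7B the lowest 2 bins were the last 2 full bins, with 182 peaks at 730 to 740 Mb (157 to 210) and 179 at 740 to 750 Mb (154 to 207). The next on 7B was 257 peaks at 600 to 610 Mb. The fullest bins were 405 peaks at 710 to 720 Mb on 7A (367 to 446), 393 at 260 to 270 Mb on 7B (355 to 434) and 418 at 620 to 630 Mb on 7D (379 to 460), the last being the 4th highest of all 1397 full bins.

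**Figure D4:**
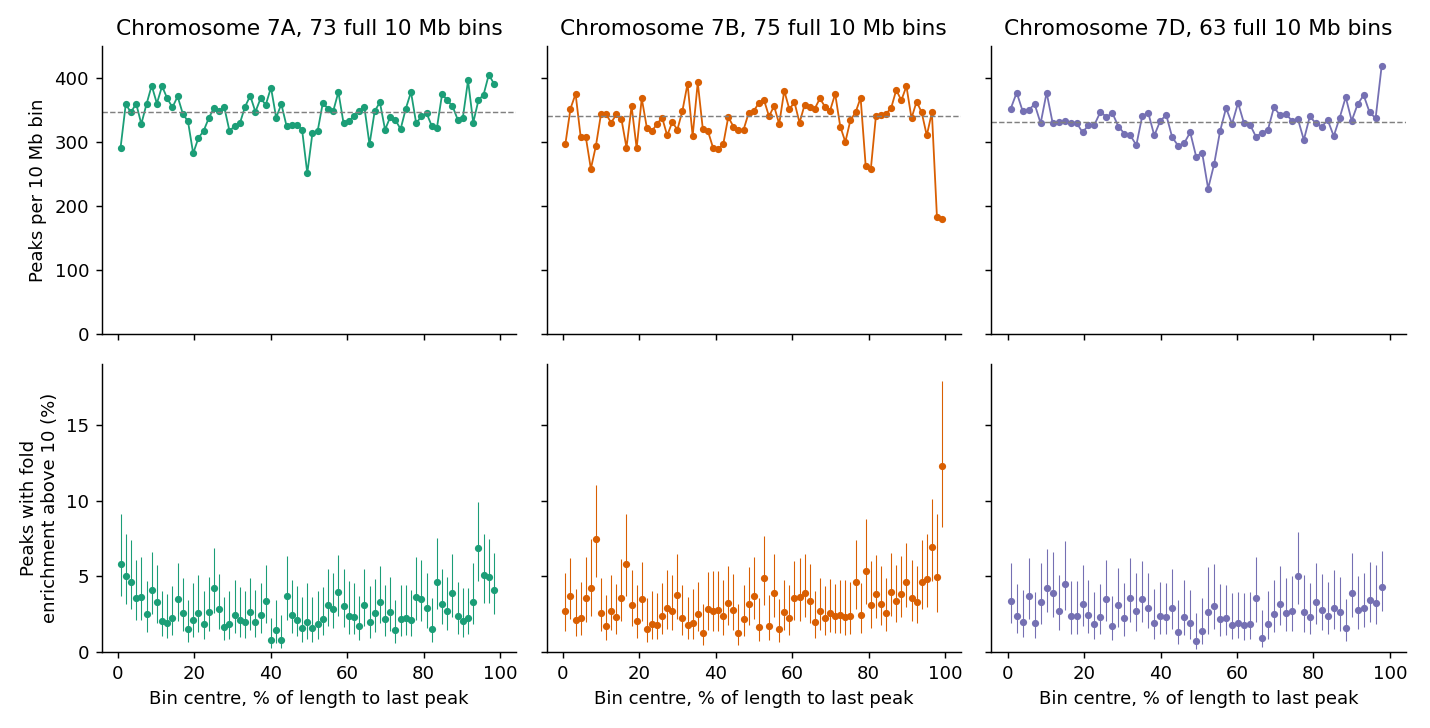
Peaks per full 10 Mb bin (upper panels, dashed line: chromosome median) and the percentage of peaks in the bin with a fold enrichment above 10 (lower panels, bars: 95% Wilson intervals) along 7A, 7B and 7D, as a percentage of the length to the last peak. The last 2 bins of 7B drop to 182 and 179 peaks, and the last one has the highest share of strong peaks, 12.3%.

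The distal end of 7B combined the fewest peaks among the full group 7 bins with the highest share of strong ones. In its last full bin 22 of 179 peaks had a fold enrichment above 10, or 12.3% (95% Wilson interval 8.26 to 17.9), which ranked 1 of all 1397 full bins. The count of 179 peaks ranked 4 from the lowest of all full bins. In that bin 20.1% of peaks had at least 20 tags, 32.4% sat at the lowest background and the listed peaks made up 56.8% of the 315 numbered calls, also the highest of all full bins. One of the strongest 7B peaks, at 748291786, lay there. The bin at 720 to 730 Mb, just before the sparse end, had 346 peaks, near the chromosome's median of 340, but a strong share of 6.94% and a kept share of 53.6%, the second highest of all full bins.

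Ends of 20 Mb, counted in full bins, were then compared over all 42 chromosome ends, a comparison made after the bin values were seen and given without a test. The end of 7B held 18.1 peaks per Mb and 34.5 numbered calls per Mb, both the lowest of the 42. Its strong share of 8.59% (31 of 361 peaks, 95% Wilson interval 6.12 to 11.9) and kept share of 52.3% were both the highest, and the next strong shares were 6.65% at the end of 2B and 6.59% at the end of 4A. Per Mb, however, it held 1.55 strong peaks, which ranked 11 of 42 (median 1.35). Over 20 Mb, strong peaks at the end of 7B were thus within the range of other ends per Mb, whereas weaker peaks and skipped numbers were few. The strong peaks were unevenly spread, with 9 of 182 peaks at 730 to 740 Mb and 22 of 179 at 740 to 750 Mb. The homoeologous ends were high by this count, since the end of 7A held 39.8 peaks per Mb, the highest of the 42, and that of 7D 37.8, which ranked 3. However, the partial bin beyond the last full bin was left out of each chromosome. It spanned 6.69 Mb with 30.2 peaks per Mb on 7A and 8.68 Mb with 37.5 on 7D. On 7B it spanned 0.620 Mb with 25.8 peaks per Mb. At the end of 7B 30.2% of peaks sat at the lowest background (the highest of the 42, against a median of 23.1%) and the mean background was 1.25 tags (range 1.06 to 1.31), and the part of the background in these values was not tested.

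Other bins with a high strong share were 690 to 700 Mb on 7A (6.85%, interval 4.68 to 9.92, with 17.3% of peaks at 20 tags or more), 60 to 70 Mb on 7B (7.48%, ranked 6 of all full bins) and 480 to 490 Mb on 7D (5.06%). The lowest strong shares were in inner bins and rested on few strong peaks. On 7A the share was 0.779% at 290 to 300 Mb (3 of 385 peaks, interval 0.265 to 2.27). On 7B it was 1.25% at 270 to 280 Mb (4 of 320, interval 0.487 to 3.17). On 7D it was 0.722% at 310 to 320 Mb (2 of 277, interval 0.198 to 2.59). Across bins, the count of peaks and the strong share had a Spearman's rho of 0.296 on 7A, -0.0299 on 7B and 0.193 on 7D. The strong share and the share with at least 20 tags had a rho of 0.582, 0.314 and 0.514. These are descriptions over 73, 75 and 63 bins that come from 1 list and so share libraries and depth.

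The first and last 10% of the length held a higher share of strong peaks than the inner part on each homoeologue, whereas their density did not behave alike. At the start of 7D the margin was small, 2.79% of 2256 peaks against 2.596% of 16526, and was not tested. The strong share in the first 10%, the inner part and the last 10% was 4.12, 2.49 and 4.25% on 7A, 3.60, 2.85 and 5.33% on 7B and 2.79, 2.596 and 3.28% on 7D. The same shares over the other 18 chromosomes were 3.47 ± 0.513, 2.70 ± 0.168 and 3.74 ± 0.562% (SD), so on average the share was higher at the ends there as well. Their ranges overlapped, at 2.68 to 4.53%, 2.37 to 2.96% and 2.84 to 4.80%. Of these group 7 ends only the last 10% of 7B, at 5.33%, was above the range of the other 18 chromosomes (2.84 to 4.80%). Density in the 3 zones was 34.6, 34.1 and 36.8 peaks per Mb on 7A, 31.5, 33.8 and 29.7 on 7B and 35.3, 32.3 and 36.7 on 7D. The last 10% of 7A and of 7D lay above the range of the other 18 chromosomes (26.9 to 35.9). The ratio of end to inner density was 1.05 on 7A, 0.907 on 7B and 1.11 on 7D. The mean difference of the group was 0.0196 (exact two-sided permutation p = 0.601, adjusted p = 0.724), with 7B on the other side of its subgenome mean from 7A and 7D.

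Cut into 20 equal parts, the density profiles of 7A and 7D had a Pearson's r of 0.491, above the range of the 18 homoeologous pairs of the other groups (-0.365 to 0.339). The profile of 7B had an r of -0.308 with 7A and of -0.356 with 7D. Without the last part, where 7B fell to 24.9 peaks per Mb, these became -0.0206 and -0.114, and 7A with 7D became 0.388. The negative values thus rested largely on the distal end of 7B. Profiles of the strong share were positively related in all 3 pairs (r of 0.608, 0.376 and 0.400 for 7A with 7B, 7A with 7D and 7B with 7D), within the range of the other pairs (-0.0325 to 0.789). The 20 parts are neighbours on 1 chromosome, so no p is attached to these values.

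With the outer 20 Mb left out of every chromosome, a setting chosen after seeing the end of 7B, the density of 7B was 33.58 peaks per Mb. The other 6 B chromosomes had 32.4 ± 0.698 (SD, range 31.6 to 33.55). Chromosome 7B thus ranked 1 rather than 2, by a narrow margin. Chromosomes 7A and 7D, at 34.4 and 32.7 peaks per Mb, also ranked 1 in their subgenomes. The variance of bin counts on 7B dropped from 4.58 to 2.71 times the mean. The density difference of the group was 0.935 peaks per Mb (exact two-sided permutation p = 0.0146, adjusted p = 0.160), positive in 3 of 3 chromosomes. In the share of peaks with at least 20 tags the difference was 0.229 percentage points (exact two-sided permutation p = 0.0845, adjusted p = 0.233).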

How the data were processed

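DAP-seq of TaCCA1-7D was described by 1 deposited peak list. Per the study's methods the authors trimmed paired reads with Trimmomatic, aligned them with Bowtie2 2.3.4 to an Ensembl wheat genome, filtered alignments on mapping quality with SAMtools 1.9, removed duplicates with Picard and called peaks with MACS2. Peaks were kept at a fold enrichment above 5 and an FDR under 1e-5. Pooling of replicates and the use of input as control are not given in the sources used here. The deposited columns hold positions, a score (a rounded multiple of the −log10 q-value, not used further), the fold enrichment of the summit as a ratio, and its −log10 p-value and −log10 q-value.

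Chromosome names chose the members, and unplaced scaffolds were left out of comparisons. The whole number of tags and the background at each summit were solved from the ratio and the p-value (misfit under 0.0001 for 100% of peaks, with a pseudocount of 1), in a procedure tested on simulated data. The 12 measures were compared by exact permutation over chromosomes within subgenomes, with Benjamini-Hochberg adjustment. Named were the 3 peaks of highest fold enrichment, the widest peak, the longest gap, the most crowded 1 Mb bin and the extreme 10 Mb bins of each chromosome; other bins and windows were named after their values were seen. Intervals (95%) cover counting error only. Members, measures and rules were chosen with earlier results of these data known. Alternatives were stricter thresholds, other bins, ends, lengths and draws, and chromosomes left out. Python 3.11.15, numpy 2.4.6, pandas 2.3.3, scipy 1.17.1 and matplotlib 3.10.9 were used.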

Additional observations from a re-analysis of the deposited data

How the results depend on the processing

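Of 72 recomputed values, 56 kept their direction, their side of the threshold and, for counts, their size. Of the other 16, 15 came from stricter peak thresholds and 1 from setting strong peaks at a fold enrichment above 15. With FDR under 1e-10, which left 14394 group 7 peaks, the density difference was 0.367 peaks per Mb (adjusted p = 0.0350 by the exact permutation test) and that of the median spacing was -6363 bp (adjusted p = 0.0350), so both passed the threshold there. The same list turned the sign of 7 differences that had not passed the test: bin dispersion 0.0663, median width -0.361 bp, wide peaks -0.253 percentage points, close spacings 0.0520 points, median fold enrichment -0.0171, strong peaks -0.333 points and kept share 0.192 points. With fold enrichment above 10, which left 2071 peaks, the sign turned for bin dispersion (0.197), median width (-2.11 bp), close spacings (0.220 points) and kept share (0.00309 points). Strong peaks defined by a fold enrichment above 15 gave -0.00816 points. A stricter list also holds fewer peaks, and the cause of the other shifts was not tested. No paired analysis was possible because each peak has 1 value for all libraries, and for the same reason no replicate could be left out. With 1 list, differences between chromosomes cannot be set against the spread between assays, and the list gives the depth behind a peak only as its tags, a median of 12 on group 7.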
